A study of Mus musculus with 15 samples.

Results

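Levels of 10 transcription factor genes that set T cell identity were followed through 15 RNA-seq libraries of mature mouse thymocytes: Gata3, Tox, Myb, Bcl11b, Tcf7, Lef1, Satb1, Ets1, Ikzf1 and Tcf3. They were taken by symbol from the deposited gene counts, and 10 of 10 symbols were found among 53762 genes. All 10 were among the 16550 genes with enough reads to be tested, the lowest count in any library being 746, for Myb. The choice was by name and not by level, but it was made with earlier results of these data known.

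The 5 groups held 3 libraries each, all on a C57BL/6 background, from thymuses of irradiated hosts that had received a mix of mutant and wild-type marrow. All 5 gates took CD44lo TCRbhi CD24lo CD69lo cells. WT CD4 SP (single-positive) cells were CD45.1+CD45.2+ competitors in B2m-/- hosts, which lack a chain of MHC class I. WT CD8 SP cells were CD45.1+CD45.2+ competitors in I-Ab-/- hosts, which lack a chain of MHC class II. The mutant groups were CD45.2+ cells in B2m-/- hosts, from donors with Thpokfl/fl, Runx3fl/dYFP and Cd4-Cre+, and Cd4-Cre deletes floxed sequence once thymocytes have begun to express CD4. Donors without Thpok-RKF gave Thpok-RKF- CD8 SP and Thpok-RKF- CD4+CD8+ cells, and donors with it gave Thpok-RKF+ CD4+CD8+ cells. The labels do not explain what Thpok-RKF is and give no ages. Nor do they tie the 3 libraries of a group to separate mice, so the spread behind each test may be technical. Host and lineage cannot be told apart between the WT CD4 SP and the WT CD8 SP group, and host and genotype cannot be told apart between mutant cells and WT CD8 SP.

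Developing T cells take their identity from a set of transcription factors that Notch signals and each other turn on in the thymus. Tcf7 and Gata3 act early, Bcl11b closes off other fates, E proteins such as the product of Tcf3 drive receptor gene rearrangement, and Satb1, Ets1, Ikzf1, Lef1 and Myb act at several steps on the way to mature cells. At the last choice, Tox and Gata3 are known to act in the helper lineage upstream of Thpok, encoded by Zbtb7b, while Runx3 acts in the cytotoxic lineage.

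As a check of the labels, Zbtb7b stood at 64.0, 79.1 and 27.4 CPM (counts scaled to library size with edgeR's TMM factors, the scale of all levels given here) in WT CD4 SP and at most at 0.376 CPM in WT CD8 SP. It stood between 1.67 and 2.95 CPM in the 6 Thpok-RKF- libraries and between 768 and 823 CPM in Thpok-RKF+ cells, where reads of Thpok-RKF and of the endogenous gene cannot be told apart. Runx3 lay between 23.1 and 32.4 CPM in WT CD4 SP cells and between 194 and 361 CPM in the other 12 libraries. Whether the floxed parts were gone cannot be read from these counts, which sum over all exons of each gene. Gene totals ran from 37311823 to 48607260 counts. Levels of 10 T cell marker genes summed to between 10460 and 17490 CPM. Libraries numbered 1 stood apart: with group in the model, edgeR called 9.32% of all genes for number 1 and 0% for number 2 and for number 3. None of the 10 genes was among those called. In 4 of 5 groups the highest Myb level was that of library 1 (log2 difference 0.41 ± 0.15 SE, adjusted p = 0.0947), and in 4 of 5 the lowest Tcf7 level was (-0.15 ± 0.05, adjusted p = 0.0613).

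**Figure D1:**
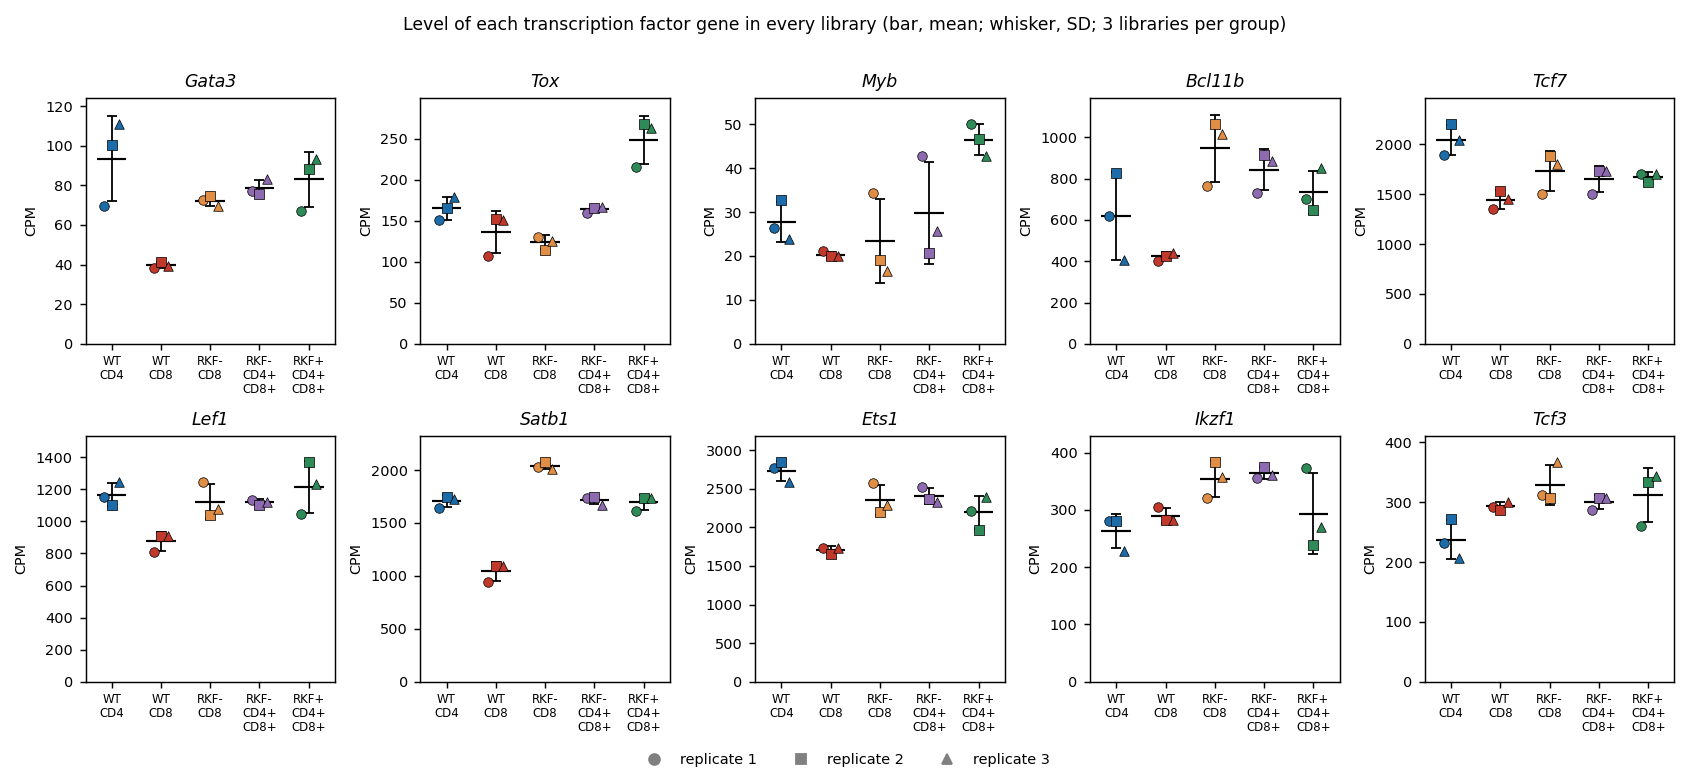
Level of each of the 10 genes in CPM (vertical axes, from 0) in every library of the 5 groups; symbols give the library number, the bar the mean and the whisker the SD of 3 libraries. WT CD8 SP had the lowest mean for 7 of 10 genes, and Gata3 there lay between 38.3 and 41.5 CPM against at least 67.1 CPM in every other library.

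Across the 5 groups WT CD8 SP had the lowest mean for 7 genes, namely Gata3, Myb, Bcl11b, Tcf7, Lef1, Satb1 and Ets1. WT CD4 SP had the lowest mean for Ikzf1 and Tcf3, and Thpok-RKF- CD8 SP for Tox. The 10 genes varied to different degrees. The highest and lowest group means were 1.21 log2 units apart for Gata3, 1.19 for Myb, 1.15 for Bcl11b, 1.00 for Tox and 0.97 for Satb1. The others spanned 0.68 (Ets1), 0.50 (Tcf7), 0.47 (Tcf3), 0.47 (Ikzf1) and 0.47 (Lef1), where the median over the 6310 genes expressed at least as highly as the lowest of the 10 was 0.53. For scale, replicates of Myb scattered most (biological coefficient of variation 23.8%) and those of Satb1 least (8.90%).

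For the 3 genes with the largest rise in mutant CD8 SP cells, the 250 bases before the RefSeq start site farthest upstream (build GRCm38.p6, minus strand, printed 5′ to 3′) are shown, so that the sequence just upstream can be read beside the levels. Capitals mark a match on either strand to 1 of 5 short motifs. These were TGTGGT for RUNX factors, AGATAA for members of the GATA family, CANNTG for E proteins (the E-box), CTTTGA for TCF/LEF factors and GGAAGT for ETS factors. No motif contains another.
Gata3, chr2:9878601-9878850: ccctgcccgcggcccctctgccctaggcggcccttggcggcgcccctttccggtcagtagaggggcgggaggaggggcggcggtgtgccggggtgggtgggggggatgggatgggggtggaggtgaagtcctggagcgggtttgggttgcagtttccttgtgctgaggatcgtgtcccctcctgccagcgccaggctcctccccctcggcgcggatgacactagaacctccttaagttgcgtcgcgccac
Satb1, chr17:51833291-51833540: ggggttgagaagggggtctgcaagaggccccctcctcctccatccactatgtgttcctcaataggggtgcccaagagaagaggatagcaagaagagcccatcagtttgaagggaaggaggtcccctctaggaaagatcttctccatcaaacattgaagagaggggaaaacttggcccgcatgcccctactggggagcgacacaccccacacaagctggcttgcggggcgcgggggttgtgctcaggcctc
Bcl11b, chr12:108003415-108003664: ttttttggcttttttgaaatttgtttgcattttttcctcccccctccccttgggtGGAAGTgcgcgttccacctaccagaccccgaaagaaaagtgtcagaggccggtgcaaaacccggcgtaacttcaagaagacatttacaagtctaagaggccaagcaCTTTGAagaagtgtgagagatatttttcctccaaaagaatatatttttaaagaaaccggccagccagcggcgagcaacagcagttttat
The Gata3 and Satb1 windows held none of the 5 motifs, and the Bcl11b window held 1 ETS and 1 TCF/LEF match. Windows were found for 8 of the 10 genes, all but Tox and Ets1. Myb and Ikzf1 also held none, Tcf7 and Lef1 held 1 E-box each, and Tcf3 held 1 E-box and 1 ETS match. Among 32841 windows of the same length, 14% held the RUNX motif, 9.99% the GATA motif, 66.2% an E-box, 13.8% the TCF/LEF motif and 19.7% the ETS motif. A match describes letters and not binding, and its absence says only that these letters are not in the window.

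The first comparison set helper against cytotoxic wild-type cells. In WT CD4 SP cells 5 of the 10 genes were higher than in WT CD8 SP cells, and none was lower (edgeR quasi-likelihood test, Benjamini-Hochberg adjusted p under 0.05). The same test called 18.0% of all genes in either direction, 7.72% as higher and 10.3% as lower. It called 26.6% of the 6310 genes expressed at least as highly as the lowest of the 10, in either direction. Libraries of both groups did not overlap for 8 of the 10, against 36.3% of all genes tested. The median log2 fold change of the 10 was 0.47, against -0.03 over all genes. These are bulk libraries, in which fewer cells of a type and less RNA per cell cannot be told apart.

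Gata3, the GATA factor needed for CD4 T cell development, showed the widest gap. It stood at 69.4, 100.3 and 111 CPM in WT CD4 SP and at 38.3, 41.5 and 39.2 CPM in WT CD8 SP. Each CD4 SP library lay above each CD8 SP library, with library 1 of the CD4 SP group the nearest. The log2 fold change was 1.24 ± 0.16 (SE, n = 3 per group; edgeR adjusted p = 0.000111), or 2.36-fold with a 95% interval from 1.89 to 2.94. This and all later intervals are normal approximations from the SE.

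Satb1, a chromatin organiser of thymocytes, and Ets1, an ETS factor of lymphocytes, had the next largest rises. Satb1 stood at 1641, 1748 and 1727 CPM in WT CD4 SP and at 940, 1091 and 1094 CPM in WT CD8 SP. The rise was 0.71 ± 0.08 on the log2 scale (edgeR adjusted p = 1.95e-05). Ets1 stood at 2770, 2843 and 2586 CPM in WT CD4 SP and at 1735, 1655 and 1732 CPM in WT CD8 SP, a log2 fold change of 0.68 ± 0.09 (edgeR adjusted p = 9.81e-05). Neither gene had a library of one group inside the range of the other.

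The HMG-box factors Tcf7 and Lef1, which partner with beta-catenin and bind the same sites, rose by smaller amounts. Tcf7 lay at 1895, 2202 and 2040 CPM in WT CD4 SP against 1349, 1535 and 1452 CPM in WT CD8 SP (0.50 ± 0.10, edgeR adjusted p = 0.00275). Lef1 lay at 1150, 1102 and 1245 CPM against 808, 911 and 908 CPM (0.41 ± 0.11, edgeR adjusted p = 0.0138). Both sets of libraries were fully apart. Without the filter on low counts Lef1 missed the threshold (adjusted p = 0.0572).

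The other 5 genes did not pass. Bcl11b, a zinc finger factor of T cell commitment, stood at 621, 829 and 406 CPM in WT CD4 SP and at 402, 425 and 441 CPM in WT CD8 SP, so that CD4 SP library 3 lay inside the CD8 SP range. Its log2 fold change was 0.55 ± 0.20 (edgeR adjusted p = 0.0785), and without that library it was 0.82 (adjusted p = 0.00706). Bcl11b also passed with DESeq2 (adjusted p = 0.0383) and with no filter on low counts (adjusted p = 0.0355). Tox, an HMG-box factor required for CD4 lineage cells, gave 0.27 ± 0.14 (edgeR adjusted p = 0.192) and Myb 0.45 ± 0.27 (edgeR adjusted p = 0.301). Ikzf1, which encodes the zinc finger factor Ikaros, gave -0.14 ± 0.14 (edgeR adjusted p = 0.572), and Tcf3, the E2A gene, -0.30 ± 0.12 (edgeR adjusted p = 0.110). For Tcf3 the CD4 SP libraries, 207 to 273 CPM, nevertheless lay below all CD8 SP libraries, 286 to 301 CPM.

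Markers of other cells moved with this comparison. The summed level of 5 regulatory T cell markers was 232 to 304 CPM in WT CD4 SP and 90.9 to 109 CPM in WT CD8 SP, with 4 of 5 higher and 1 lower in CD4 SP. The sum of 6 NKT and innate-like markers was 112 to 188 CPM in WT CD4 SP and 695 to 718 CPM in WT CD8 SP, with 4 of 6 lower in CD4 SP. Immature thymocyte markers summed to 194 to 252 CPM in WT CD4 SP and to 104 to 128 CPM in WT CD8 SP, with 1 of 8 higher and 1 lower. Most of this sum was Cd1d1, at 194 ± 26.1 against 75.8 ± 14.8 CPM (SD, n = 3). Dntt stood at 17.8 ± 4.18 and 15.2 ± 2.93 CPM and Rag1 at 1.26 ± 1.56 and 0.64 ± 0.44 CPM, while Mns1 was at 5.32 ± 1.06 against 16.4 ± 1.67 CPM. B cell markers summed to 543 to 809 CPM in WT CD4 SP and to 843 to 1190 CPM in WT CD8 SP, with 2 of 4 tested lower in CD4 SP. Stromal markers summed to 260 to 312 CPM against 160 to 182 CPM, with 2 of 4 tested higher and 1 lower in CD4 SP. Of the erythroid markers tested 2 of 3 were higher in CD4 SP. Of the NKT markers, the defining NKT factor Zbtb16 had at most 1.87 CPM in WT CD4 SP and 0.276 CPM in WT CD8 SP. Myeloid markers summed to 33.3 CPM in 1 WT CD4 SP library and to at most 4.49 CPM in the other 5 libraries of this comparison. The part of these cells in the values of the 10 genes was not tested.

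**Figure D2:**
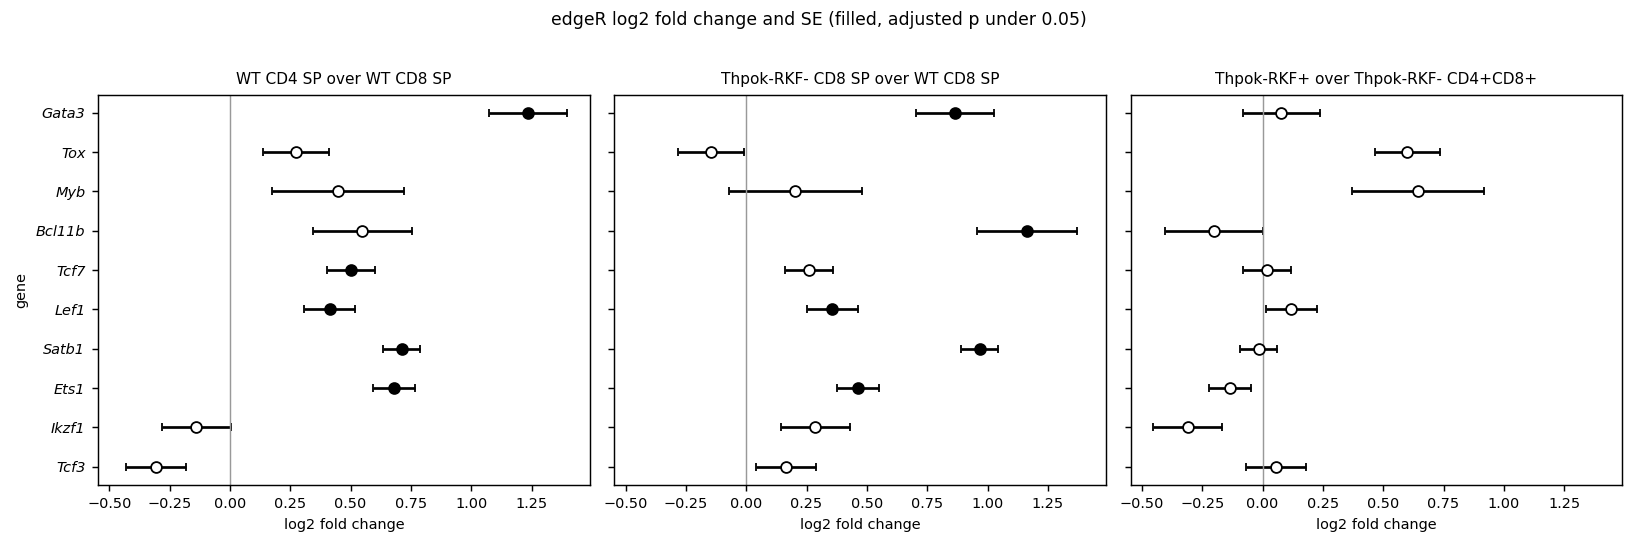
Log2 fold change (horizontal axes) of the 10 genes in 3 comparisons, from edgeR; points are estimates, whiskers the SE, and filled points passed an adjusted p of 0.05. Filled are 5 genes in WT CD4 SP over WT CD8 SP, 5 in Thpok-RKF- CD8 SP over WT CD8 SP, and none in Thpok-RKF+ over Thpok-RKF- CD4+CD8+ cells.

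Mutant CD8 SP cells were then set against wild-type cells of the same gate. In Thpok-RKF- CD8 SP cells Bcl11b, Satb1, Gata3, Ets1 and Lef1 were higher than in WT CD8 SP cells, and none of the 10 was lower. This was 5 of 10, where the test called 18.4% of all genes, 7.77% as higher and 10.6% as lower. It called 26.4% of the genes expressed at least as highly as the lowest of the 10. Libraries did not overlap for 7 of the 10, against 39.6% of all genes. The comparison shares its WT CD8 SP libraries with the previous one, so a low value in those 3 libraries enters both.

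Bcl11b stood at 762, 1063 and 1014 CPM in Thpok-RKF- CD8 SP cells, each above the highest WT CD8 SP library. The log2 fold change was 1.16 ± 0.21 (edgeR adjusted p = 0.00102), or 2.24-fold with a 95% interval from 1.69 to 2.97. Satb1 stood at 2024, 2073 and 2014 CPM (0.97 ± 0.08, edgeR adjusted p = 9.20e-07), and the lower 95% bound of its ratio was 1.76. Thpok-RKF- CD8 SP was the highest of the 5 groups for Satb1, and its lowest library lay above every other library. Gata3 stood at 72.8, 74.4 and 69.4 CPM (0.86 ± 0.16, edgeR adjusted p = 0.00143). Ets1 stood at 2575, 2196 and 2295 CPM (0.46 ± 0.09, edgeR adjusted p = 0.00155). The calls of Bcl11b, Satb1, Gata3 and Ets1 held in 14 of 14 alternative settings.

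Lef1, at 1245, 1041 and 1078 CPM, passed with 0.36 ± 0.11 (edgeR adjusted p = 0.0286). That call was lost without Thpok-RKF- CD8 SP library 1 (adjusted p = 0.109) and without WT CD8 SP library 1, 2 or 3 (adjusted p = 0.0859, 0.0560 and 0.0539). It was also lost with no filter on low counts (adjusted p = 0.0908). Tcf7, at 1502, 1879 and 1808 CPM, did not pass (0.26 ± 0.10, edgeR adjusted p = 0.0870), its library 1 lying inside the WT CD8 SP range. Without that library it was 0.37 with an adjusted p of 0.0253. Tcf7 also passed with DESeq2 (adjusted p = 0.0358), a replicate block (0.0264) and a term for libraries numbered 1 (0.0183). With all 5 libraries numbered 1 left out, 8 of the 10 were called, Tcf7 (0.33) and Ikzf1 (0.41) among the higher ones and Tox as lower (-0.31), where 20.0% of all genes tested without them were called. In the fit of all libraries Ikzf1 gave 0.29 ± 0.14 (adjusted p = 0.199), Tcf3 0.17 ± 0.12 (adjusted p = 0.427), Myb 0.20 ± 0.27 (adjusted p = 0.692) and Tox -0.14 ± 0.14 (adjusted p = 0.543).

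Immature thymocyte markers moved with this comparison. The 8 markers of CD4+CD8+ immature thymocytes summed to 298 to 345 CPM in Thpok-RKF- CD8 SP and to 104 to 128 CPM in WT CD8 SP, with 3 of 8 higher and 1 lower. Dntt, the terminal transferase gene, was the main contributor at 164 ± 49.6 CPM against 15.2 ± 2.93 CPM (SD, n = 3). The recombinase gene Rag1 stood at 1.57 ± 0.77 and 0.64 ± 0.44 CPM, and Ptcra at 0.02 ± 0.04 and 0.09 ± 0.11 CPM. NKT and innate-like markers summed to 174 to 217 CPM in the mutant cells, below the WT CD8 SP range given above, with 4 of 6 lower. Zbtb16 among them stood at 1.06 ± 0.63 against 0.09 ± 0.16 CPM (SD, n = 3). The part of such cells in the higher levels of the 5 genes was not tested.

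Thpok-RKF- CD8 SP cells were also set against WT CD4 SP cells, which came from the same kind of host. Tcf3 and Satb1 were higher and Tox was lower, 3 of 10 called, where the test called 17.7% of all genes, 8.91% as higher and 8.75% as lower. Libraries did not overlap for 6 of the 10, against 37.0% of all genes. Tcf3 stood at 313, 308 and 367 CPM against 232, 273 and 207 CPM in WT CD4 SP (0.47 ± 0.12, edgeR adjusted p = 0.0186). Satb1 rose by 0.26 ± 0.08 on the log2 scale (edgeR adjusted p = 0.0329). Tox stood at 131, 114 and 126 CPM against 151, 166 and 179 CPM (-0.42 ± 0.14, edgeR adjusted p = 0.0471). Bcl11b (0.61 ± 0.20, edgeR adjusted p = 0.0522) and Ikzf1 (0.43 ± 0.14, edgeR adjusted p = 0.0533) lay just outside the threshold. Regulatory T cell markers summed to 77.1 to 131 CPM in the mutant cells against 232 to 304 CPM, with 4 of 5 lower, and immature thymocyte markers to 298 to 345 CPM against 194 to 252 CPM, with 1 of 8 higher. Within the immature sum Dntt stood at 164 ± 49.6 against 17.8 ± 4.18 CPM, and Cd1d1 at 132 ± 30.3 against 194 ± 26.1 CPM (SD, n = 3). The part of such cells in these values was not tested.

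Each of these 3 calls was lost when certain libraries were left out or the processing changed. Without the filter on low counts the adjusted p was 0.231 for Satb1 and 0.0936 for Tox, and with only the compared groups it was 0.0525 for Satb1. The Satb1 call was also lost whichever of the 6 libraries was left out (adjusted p from 0.0667 to 0.151). The Tcf3 call was lost without Thpok-RKF- CD8 SP library 2 or 3 (adjusted p = 0.0571 and 0.0989) and without WT CD4 SP library 1 or 3 (adjusted p = 0.0775 and 0.136). The Tox call was lost without Thpok-RKF- CD8 SP library 1, 2 or 3 (adjusted p = 0.0646, 0.143 and 0.102) and without WT CD4 SP library 2 or 3 (adjusted p = 0.0787 and 0.128). Gata3, at -0.37 ± 0.16 (edgeR adjusted p = 0.123), passed without WT CD4 SP library 1 (-0.57, adjusted p = 0.0174) and without all libraries numbered 1 (-0.56, adjusted p = 0.00708). Bcl11b passed without Thpok-RKF- CD8 SP library 1 (adjusted p = 0.0465) and without WT CD4 SP library 2 (adjusted p = 0.0117). With all libraries kept, Bcl11b passed with DESeq2 (adjusted p = 0.0209), limma-trend (0.026), no filter on low counts (0.0118), a replicate block (0.0431) and a term for libraries numbered 1 (0.0384). Ikzf1 passed with DESeq2 (0.0273), limma-trend (0.0454), only the compared groups (0.0423), the block (0.041) and the term (0.0316), and without all libraries numbered 1 (0.0132). Tcf7, at -0.24 ± 0.10 (edgeR adjusted p = 0.107), passed with the block (0.033) and the term (0.0236).

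Within the mutant donors, Thpok-RKF- CD4+CD8+ cells were compared with Thpok-RKF- CD8 SP cells. None of the 10 genes was called, and the test called 2.44% of all genes, 1.72% as higher and 0.719% as lower. DESeq2 called 1 of the 10, Satb1, and limma-trend 0, where they called 4.7% and 3.0% of all genes. Tox stood at 160, 166 and 166 CPM in the CD4+CD8+ cells, above every CD8 SP library (0.41 ± 0.14, edgeR adjusted p = 0.187). Satb1 stood at 1731, 1745 and 1669 CPM, below every CD8 SP library (-0.25 ± 0.08, edgeR adjusted p = 0.141). Libraries did not overlap for 4 of the 10, namely Gata3, Tox, Satb1 and Tcf3, against 21.1% of all genes. The interval of the Gata3 ratio ran from 0.877 to 1.35, and that of the Lef1 ratio from 0.865 to 1.15. Without all libraries numbered 1, Satb1 (adjusted p = 0.0356) and Tox (adjusted p = 0.0215) passed. Of the 8 immature thymocyte markers 1 was lower and none higher in the CD4+CD8+ cells. Dntt stood at 43.1 ± 11.5 CPM there against 164 ± 49.6 CPM (SD, n = 3), while the median log2 fold change of the 8 was 0.17. Of regulatory T cell markers 2 of 5 were higher, and of NKT and innate-like markers 2 of 6. The part of such cells was not tested.

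The CD4-to-CD8 difference of wild-type cells was compared with that between the mutant populations in 1 test of the difference of differences. Satb1, Ets1, Gata3 and Tcf7 had a smaller difference in mutant than in wild-type cells, 4 of 10 called, all in that direction. The test called 14.3% of all genes, 5.79% in that direction and 8.47% in the other. It called 21.8% of the genes expressed at least as highly as the lowest of the 10. Satb1 moved by 0.71 in wild-type and by -0.25 in mutant cells, a difference of -0.96 ± 0.11 (edgeR adjusted p = 3.88e-05). Ets1 moved by 0.68 and 0.03, a difference of -0.65 ± 0.12 (edgeR adjusted p = 0.00275). Gata3 moved by 1.24 and 0.12, a difference of -1.12 ± 0.23 (edgeR adjusted p = 0.00418).

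For Tcf7 the values were 0.50 and -0.06, a difference of -0.57 ± 0.14 (edgeR adjusted p = 0.0148). That call was lost without the filter on low counts (adjusted p = 0.0714), while those of Satb1, Ets1 and Gata3 held in 20 of 20 alternatives. Lef1 gave -0.42 ± 0.15 (edgeR adjusted p = 0.0789) and Bcl11b -0.72 ± 0.29 (edgeR adjusted p = 0.119). Bcl11b passed when WT CD4 SP library 3 was left out (-0.98, adjusted p = 0.0157). Lef1 passed with DESeq2 (adjusted p = 0.017), only the compared groups (0.0186) and relative log expression factors (0.0472). Tox (0.13 ± 0.19), Myb (-0.10 ± 0.39), Ikzf1 (0.18 ± 0.20) and Tcf3 (0.18 ± 0.18) did not pass. Host differs between the wild-type groups and not between the mutant groups, so host enters this difference. The wild-type libraries also enter the first comparison, where Satb1, Ets1, Gata3 and Tcf7 were called as well. Both CD8 SP groups enter Thpok-RKF- CD8 SP against WT CD8 SP too, where Satb1 (0.97), Gata3 (0.86) and Ets1 (0.46) were called as higher. Thpok-RKF- CD4+CD8+ against WT CD4 SP, the other part of the same difference, gave 0.008, -0.25 and -0.18 for these genes, not called. These are therefore not separate results.

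**Figure D3:**
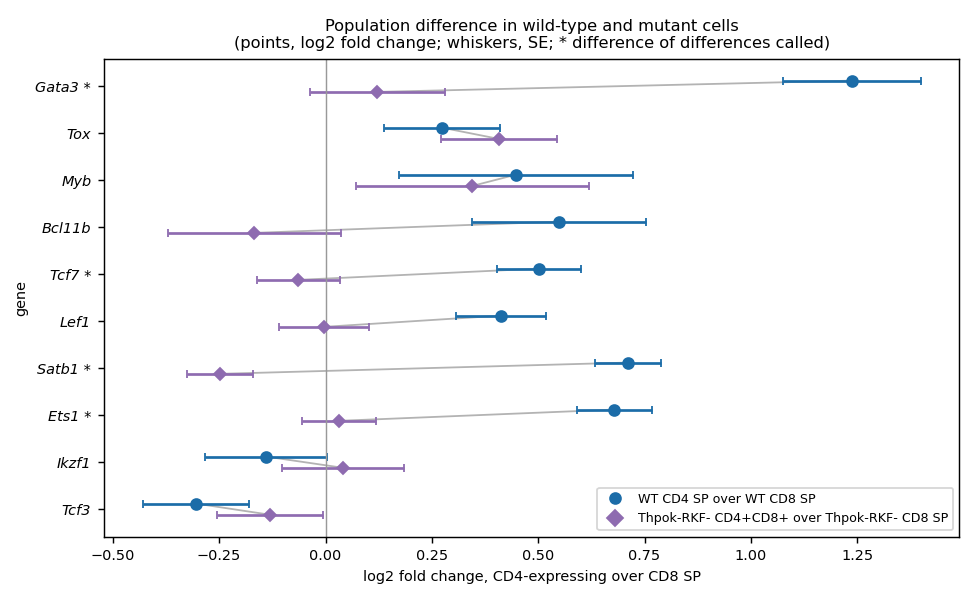
Log2 fold change (horizontal axis) of each gene between the WT CD4 SP and the WT CD8 SP group (circles) and between Thpok-RKF- CD4+CD8+ and Thpok-RKF- CD8 SP cells (diamonds), with SE; an asterisk marks a called difference of differences. Gata3 sits at 1.24 in wild-type and 0.12 in mutant cells, and Satb1 at 0.71 and -0.25.

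The series title names the comparison of CD4+CD8+ cells with and without Thpok-RKF. None of the 10 genes passed the edgeR test, and 0.961% of all genes were called, 0.586% as higher and 0.375% as lower. DESeq2 and limma-trend each called 1 of the 10, Tox, where they called 4.1% and 1.7% of all genes. Tox stood at 215, 268 and 263 CPM in Thpok-RKF+ cells and at 160, 166 and 166 CPM in Thpok-RKF- cells. Each Thpok-RKF+ library lay above each Thpok-RKF- library, and above all other libraries of the series. The log2 fold change was 0.60 ± 0.14 (edgeR adjusted p = 0.0532), or 1.52-fold with a 95% interval from 1.26 to 1.83. The adjusted p was 0.00145 in DESeq2 and 0.0266 in limma-trend. Tox stayed outside the threshold in 6 of 14 alternatives, with an adjusted p of up to 0.218. These were the fit of only the compared groups and those without any 1 library other than Thpok-RKF+ library 1. Tox was the only 1 of the 10 whose libraries did not overlap, against 16.4% of all genes.

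Myb, a factor of proliferating progenitors, stood at 50.0, 46.7 and 42.8 CPM in Thpok-RKF+ cells and at 42.8, 20.7 and 25.6 CPM in Thpok-RKF- cells. Library 1 of the Thpok-RKF- group reached the lower end of the Thpok-RKF+ range (0.65 ± 0.27, edgeR adjusted p = 0.306). Ikzf1 stood at 372, 238 and 270 CPM against 355, 375 and 361 CPM, with Thpok-RKF+ library 1 at the level of the other group (-0.31 ± 0.14, edgeR adjusted p = 0.343). Without Thpok-RKF+ library 1, Tox (0.71, adjusted p = 0.00715) and Ikzf1 (-0.51, adjusted p = 0.0201) were called, where 9.74% of all genes tested without it were called. Without all libraries numbered 1, Tox (adjusted p = 0.00398), Myb (0.95, adjusted p = 0.0185) and Ikzf1 (-0.54, adjusted p = 0.0234) were called, where 10.7% of all genes tested without them were called. Myeloid markers summed to 48.5 CPM in Thpok-RKF+ library 1 and to at most 3.70 CPM in the other 5 libraries of this comparison. Regulatory T cell markers summed to 169 to 217 CPM against 135 to 228 CPM, with 1 of 5 higher and 1 lower, and NKT and innate-like markers to 496 to 532 CPM against 352 to 464 CPM, with 1 of 6 higher. The NKT factor Zbtb16 stood at 0.13 ± 0.15 against 0.89 ± 0.74 CPM (SD, n = 3). The part of such cells in these values was not tested.

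The other 7 genes had an edgeR adjusted p of 0.508 or more. Their intervals are normal approximations, narrower than the F test implies. The ratio of Thpok-RKF+ to Thpok-RKF- CD4+CD8+ cells had a 95% interval from 0.891 to 1.10 for Satb1, from 0.886 to 1.16 for Tcf7, from 0.810 to 1.03 for Ets1 and from 0.941 to 1.25 for Lef1. It ran from 0.851 to 1.31 for Gata3, from 0.878 to 1.23 for Tcf3 and from 0.659 to 1.15 for Bcl11b. Zbtb7b itself differed by 8.34 ± 0.42 on the log2 scale between these groups (edgeR adjusted p = 5.22e-08), and whether this is the endogenous gene or Thpok-RKF itself cannot be told apart in these counts.

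Each CD4+CD8+ population was also set against WT CD4 SP cells, whose libraries enter these comparisons, that of mutant CD8 SP cells and the wild-type one alike. In Thpok-RKF- CD4+CD8+ cells Ikzf1 was higher, at 355 to 375 against 229 to 281 CPM (0.47 ± 0.14, edgeR adjusted p = 0.0368), and Tcf7 was lower, at 1506 to 1731 against 1895 to 2202 CPM (-0.31 ± 0.10, edgeR adjusted p = 0.0459). This was 2 of 10, where 17.6% of all genes were called (9.15% as higher, 8.42% as lower), and 4 of 10 did not overlap, against 38.4%. The Tcf7 call was lost with no filter on low counts (adjusted p = 0.232), limma-trend (0.136), only the compared groups (0.0664) and relative log expression factors (0.0590). Both calls were lost whichever of the 6 libraries was left out, with adjusted p from 0.0575 to 0.177 for Ikzf1 and from 0.0511 to 0.170 for Tcf7. Bcl11b (0.45 ± 0.20, edgeR adjusted p = 0.145) passed without WT CD4 SP library 2 (adjusted p = 0.0320), as did Tcf3 (0.34 ± 0.12, edgeR adjusted p = 0.0734, and 0.0476 without it). With all libraries kept, Tcf3 passed with DESeq2 (adjusted p = 0.0364), limma-trend (0.0234) and a term for libraries numbered 1 (0.0392).

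In Thpok-RKF+ CD4+CD8+ cells Tox was higher than in WT CD4 SP cells (0.59 ± 0.14, edgeR adjusted p = 0.0157) and Ets1 was lower, at 2212, 1972 and 2396 CPM (-0.32 ± 0.09, edgeR adjusted p = 0.0398). This was 2 of 10, where 7.26% of all genes were called (4.36% as higher, 2.91% as lower). Libraries did not overlap for 4 of the 10, against 21.0% of all genes. The Tox call was lost without Thpok-RKF+ library 3 (adjusted p = 0.0697) or WT CD4 SP library 1 (adjusted p = 0.0741) and with only the compared groups (adjusted p = 0.0541). The Ets1 call was lost with no filter on low counts (adjusted p = 0.236), limma-trend (0.109) and only the compared groups (0.280), and without all libraries numbered 1 (0.0955). It was also lost without Thpok-RKF+ library 1 or 2 (adjusted p = 0.0595 and 0.114) and without WT CD4 SP library 1 or 2 (adjusted p = 0.0988 and 0.107). Myb gave 0.75 ± 0.27 (edgeR adjusted p = 0.128) with no overlap between libraries, and passed without the filter on low counts (adjusted p = 0.0446). Tcf7 gave -0.29 ± 0.10 (edgeR adjusted p = 0.103), also with no overlap. It passed with a replicate block (adjusted p = 0.0327), a term for libraries numbered 1 (0.0215) and without all libraries numbered 1 (0.0142). Tcf3 (0.40 ± 0.12, edgeR adjusted p = 0.0715) passed without Thpok-RKF+ library 1 (adjusted p = 0.0238) and without WT CD4 SP library 2 (adjusted p = 0.0482). With all libraries kept, Tcf3 passed with DESeq2 (adjusted p = 0.0289), limma-trend (0.0413) and a term for libraries numbered 1 (0.0388). NKT and innate-like markers summed to 352 to 464 CPM in Thpok-RKF- and to 496 to 532 CPM in Thpok-RKF+ CD4+CD8+ cells, against 112 to 188 CPM in WT CD4 SP. The defining NKT factor Zbtb16 among them went the other way, at 0.89 ± 0.74 and 0.13 ± 0.15 CPM against 1.59 ± 0.36 CPM (SD, n = 3). Of these 6 markers 2 were higher and 1 lower without Thpok-RKF, and 2 higher with it, and of 5 regulatory T cell markers 2 were lower in each. Their part in these values was not tested.

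In the order of the 5 group means, neighbouring groups mostly overlapped. For Gata3 the order was WT CD4 SP (93.5 ± 21.6 CPM, SD, n = 3), then the CD4+CD8+ cells with Thpok-RKF (83.0 ± 13.9) and without it (78.6 ± 3.86), then mutant CD8 SP (72.2 ± 2.54) and WT CD8 SP (39.7 ± 1.65). The upper 3 overlapped. Mutant CD8 SP, at 69.44 to 74.41 CPM, was apart from its neighbours but lay inside the ranges of WT CD4 SP (from 69.36 CPM) and Thpok-RKF+ CD4+CD8+ cells (from 67.14 CPM). For Tox the order was Thpok-RKF+ CD4+CD8+ (249 ± 29.1), WT CD4 SP (165 ± 14.3), Thpok-RKF- CD4+CD8+ (164 ± 3.62), WT CD8 SP (137 ± 25.6) and Thpok-RKF- CD8 SP (124 ± 8.58). Neighbours overlapped within the pair at 165 and 164 and within the pair at 137 and 124. WT CD8 SP, at up to 152.4 CPM, also reached into the WT CD4 SP range, which began at 150.7 CPM. For Myb every pair of neighbours overlapped, from Thpok-RKF+ CD4+CD8+ (46.5 ± 3.59) down to WT CD8 SP (20.3 ± 0.65). For Bcl11b every pair of neighbours overlapped too, from Thpok-RKF- CD8 SP (947 ± 162) down to WT CD8 SP (423 ± 19.3). Tcf7 and Ets1 were highest in WT CD4 SP, without overlap with the next group. Lef1, Satb1, Ets1 and Gata3 were lowest in WT CD8 SP, likewise without overlap with the next group.

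The genes whose pattern over the 15 libraries was nearest were named by the smallest root mean square difference of centred log2 CPM, among 8310 genes. For Gata3 these were Parp11 (0.164), Plaat3 (0.171) and Smc4 (0.175), where the standard deviation of Gata3 itself was 0.473. For Myb they were Neurl3 (0.243), Vps37b (0.257) and Fuz (0.258), against its own 0.529. For Bcl11b they were Map7 (0.224), Galnt10 (0.233) and Tesk2 (0.235), against its own 0.485.

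Relatives and partners of the 10 genes were read from 10 lists holding 53 genes, of which 43 had enough reads. In WT CD4 SP against WT CD8 SP cells 6 of the 43 were higher and 10 lower, where 7.72% and 10.3% of all genes were, with a median log2 fold change of -0.15. In Thpok-RKF- CD8 SP against WT CD8 SP cells 8 were higher and 7 lower, where 7.77% and 10.6% of all genes were. Between the CD4+CD8+ groups Zbtb7b alone was called, where 0.961% of all genes were. None of the 3 TOX relatives passed in either, and no gene of the BCL11 and SATB lists had enough reads. Gata1, a GATA factor best known in erythroid cells and the only 1 of 5 listed GATA relatives tested, was higher in WT CD4 SP than in WT CD8 SP cells (1.50 ± 0.25, edgeR adjusted p = 0.000921). It was also higher in Thpok-RKF- CD8 SP than in WT CD8 SP cells (1.49 ± 0.25, edgeR adjusted p = 0.000734). It stood at 41.4 to 56.5 CPM in these mutant cells, where 5 erythroid markers summed to at most 1.43 CPM. In WT CD4 SP cells those markers summed to 5.92, 0.228 and 10.4 CPM, against at most 0.0753 CPM in WT CD8 SP, and 2 of 3 tested were higher, while Gata1 stood at 46.3, 48.8 and 46.7 CPM. Their part in the Gata1 level was not tested.

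Mybl2, the relative of Myb active in dividing cells, was lower in WT CD4 SP than in WT CD8 SP cells (-1.87 ± 0.39, edgeR adjusted p = 0.00370) and lower in Thpok-RKF- CD8 SP than in WT CD8 SP cells (-3.07 ± 0.41, edgeR adjusted p = 8.39e-05). Among 8 TCF/LEF partners, Tcf7l1 was higher in WT CD4 SP (1.01 ± 0.32), while Ctnnb1, the beta-catenin gene (-1.03 ± 0.21), and the corepressor genes Tle4 (-0.52 ± 0.14) and Tle1 (-0.70 ± 0.21) were lower. Of 12 ETS relatives tested, Etv6 was higher (0.71 ± 0.19) and Elf4 lower (-1.13 ± 0.25) in WT CD4 SP, beside the rise of Ets1 itself. Of 4 Ikaros relatives, Ikzf4 (Eos) was higher (1.68 ± 0.22), and Ikzf2 (Helios, -1.76 ± 0.40) and Ikzf3 (Aiolos, -0.79 ± 0.18) were lower. Ikzf2 fell further in Thpok-RKF- CD8 SP, to between 0.994 and 2.40 CPM from 23.6 to 35.5 CPM in WT CD8 SP (-4.33 ± 0.46, edgeR adjusted p = 1.02e-05). Ikzf1 passed in neither comparison.

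Id2, an inhibitor of E proteins that acts against the product of Tcf3, was the 1 called of 6 E and Id protein genes in the wild-type comparison. It stood at 77.8, 70.3 and 95.6 CPM in WT CD4 SP and at 156, 199 and 197 CPM in WT CD8 SP (-1.18 ± 0.16, edgeR adjusted p = 0.000185). In Thpok-RKF- CD8 SP cells it lay at 62.8 to 89.9 CPM, below every WT CD8 SP library (-1.34 ± 0.17, edgeR adjusted p = 4.40e-05). In Thpok-RKF- CD4+CD8+ cells it lay at 141 to 167 CPM, above every Thpok-RKF- CD8 SP library (1.07 ± 0.16, edgeR adjusted p = 0.00183). Among 8 lineage factors, Runx1 was higher in WT CD4 SP than in WT CD8 SP cells (1.23 ± 0.18, edgeR adjusted p = 0.000245) and its partner gene Cbfb lower (-0.56 ± 0.14, edgeR adjusted p = 0.0128). Runx1 was also higher in Thpok-RKF- CD8 SP than in WT CD8 SP cells (1.36 ± 0.18, edgeR adjusted p = 7.68e-05), and Cbfb lower (-1.12 ± 0.14, edgeR adjusted p = 6.24e-05).

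**Figure D4:**
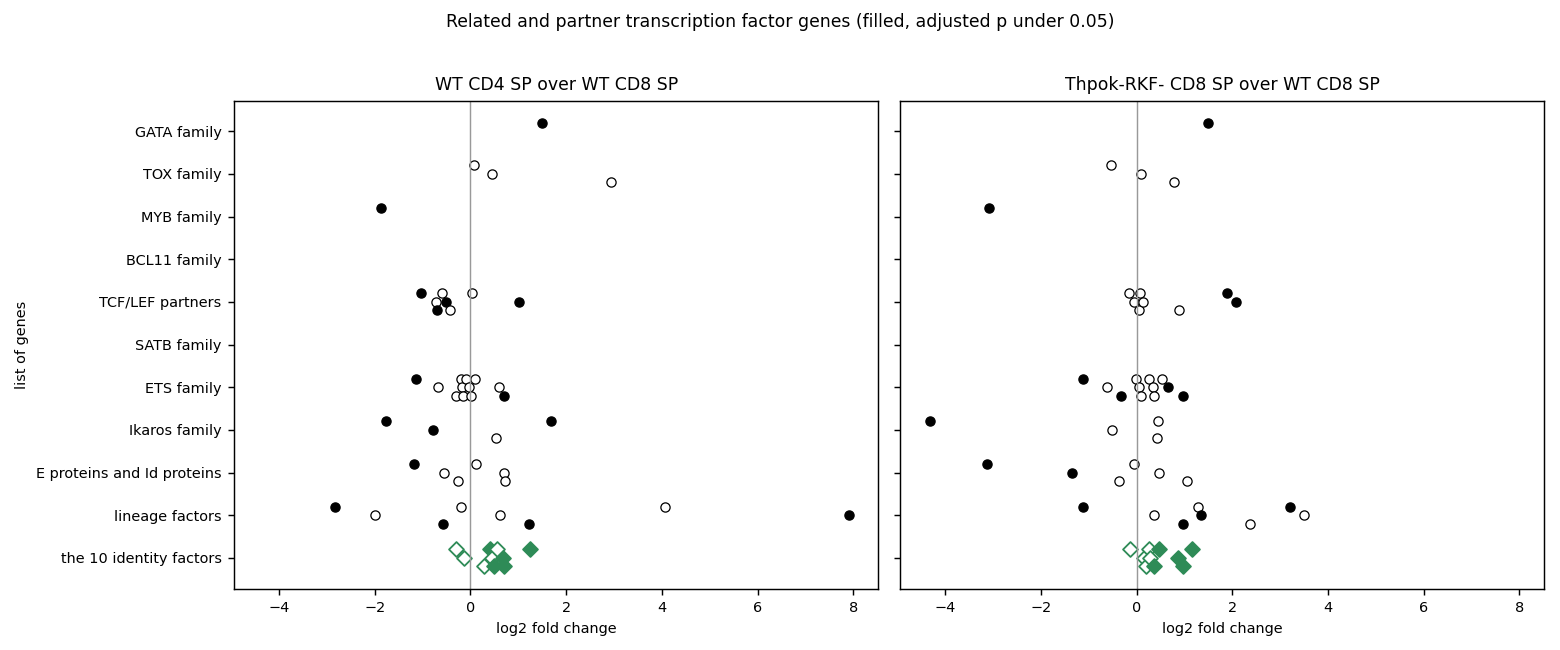
Log2 fold change (horizontal axes) of the tested relatives and partners in 10 lists (circles) and of the 10 genes themselves (diamonds, bottom line) in WT CD4 SP over WT CD8 SP (left) and Thpok-RKF- CD8 SP over WT CD8 SP (right); filled symbols passed an adjusted p of 0.05 in edgeR. No gene of the BCL11 and SATB lists had enough reads; Mybl2 sits at -1.87 and -3.07, and Gata1 at 1.50 and 1.49.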

How the data were processed

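The deposited files held unnormalized counts for each gene, in 1 file per library and in 1 table of all libraries with the same values, and a table of CPM (named FPM there), per the file headers. Tools listed without roles in the submitters' processing notes are STAR, HTSeq, Trimmomatic, bcl2fastq 2.17 and DESeq2, with the build mm39. The annotation and the strand setting were not given in the sources used here. Each deposited table also held 3 columns of per-library values matching no label, which were not used. Lines that name no gene, 15.9 to 21.0% of each library, were left out. In 100% of cases the deposited CPM times the gene total was whole (tolerance 0.01). No replicates agreed within sampling noise (chi-square over its degrees of freedom, 11.1 to 190.4).

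Counts of all 15 libraries were fitted in 1 model of group means with edgeR 4.0.16 (R 4.3.3; TMM, minimum count 10, minimum total 15, quasi-likelihood F test, Benjamini-Hochberg over 16550 genes, threshold 0.05). SE is the log2 fold change over the square root of F. The 95% intervals treat the estimate as normal with this SE, so they are narrower than the F test implies. Tox in WT CD4 SP against WT CD8 SP, for example, had a ratio interval from 1.005 to 1.454 beside an unadjusted edgeR p of 0.0637. The script was tested on simulated data. Alternatives were DESeq2 1.42.0, no filter on low counts, scaling by relative log expression, only the compared groups, limma-trend (limma 3.58.1, log2 of deposited CPM plus 1), a replicate block, a term for or removal of libraries numbered 1, and leaving out each library.

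The 10 genes, the lists and the alternatives were chosen with earlier results of these data known. Named besides the 10 were Zbtb7b, Runx3, up to 4 genes of each family list by smallest adjusted p in WT CD4 SP against WT CD8 SP or Thpok-RKF+ against Thpok-RKF-, and the 3 nearest patterns of the 3 genes with the widest range (mean log2 CPM at least 3). Markers, and genes in the closing section, were named after their values were seen. Gene models were checked in GENCODE M21 (GRCm38): exons of Gata3, Tox, Myb, Lef1 and Satb1 overlap those of another gene. Without a known strand setting, reads shared with the antisense genes Gm6934 (Satb1, 279 to 886 counts), Gm11802 (Tox, 2 to 22) and Gm13256 (Gata3, 0 to 9) cannot be told apart. The widest overlap was that of Lef1 with the antisense gene Gm43352, 13.7% of its exon bases, a gene without deposited counts. Myb shared 6.26% with the antisense gene Gm26577, which had 0 counts. Satb1 also shared 0.82% with Gm36931 on the same strand (30 to 180 counts). Promoter sequences are from RefSeq.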

Additional observations from a re-analysis of the deposited data

Results flagged for a closer look

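For 4 genes the CD4-to-CD8 difference of wild-type cells differed from the difference between the mutant CD4+CD8+ and CD8 SP populations, by a test of that difference in edgeR. The difference of differences was -1.115 for Gata3, -0.9598 for Satb1, -0.648 for Ets1 and -0.565 for Tcf7 on the log2 scale (adjusted p = 0.00418, 3.88e-05, 0.00275 and 0.0148). The wild-type groups differ in host as well as lineage, and host and lineage cannot be told apart there. Their libraries also enter WT CD4 SP against WT CD8 SP, where the same 4 genes were called. Libraries of both CD8 SP groups enter Thpok-RKF- CD8 SP against WT CD8 SP too, where Satb1, Gata3 and Ets1 were called as higher. These are therefore not separate results.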

How the results depend on the processing

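Over 1180 pairs of a result of 1 of the 10 genes and an alternative, 1064 kept their side of the threshold, 52 calls were lost, 64 were gained and no called value changed sign. Of the 1064, 44 values, called in neither setting, changed sign, and their size in the fit of all libraries was at most 0.24 (log2). The calls of Gata3, Satb1, Ets1 and Tcf7 in WT CD4 SP against WT CD8 SP held in 14 of 14 alternatives. Group means in the deposited CPM differed by at most 2.59% and single libraries by at most 4.91%.

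The number of the 10 genes called moved as follows. Between the CD4+CD8+ groups it was 0. It was 1 with DESeq2, limma-trend, no filter, relative log expression factors, the replicate block or a term for libraries numbered 1 (0.997% to 4.1% of all genes called). Without those libraries it was 3 (10.7% of all genes called), and with 1 library left out 0 to 2 (0.288% to 9.74%). In Thpok-RKF- CD4+CD8+ against Thpok-RKF- CD8 SP cells it was 0. It was 1 with DESeq2, only the compared groups or the term (4.7%, 3.58% and 3.4% of all genes called), and 2 without libraries numbered 1 (3.14%). In Thpok-RKF- CD8 SP against WT CD8 SP cells it was 5, and 8 without libraries numbered 1 (20.0% of all genes called). In Thpok-RKF- CD8 SP against WT CD4 SP cells it was 3, and 5 with DESeq2 or limma-trend, 6 with the block, the term or without libraries numbered 1, and 0 to 2 with 1 library left out. The share of all genes called there moved too, from 17.7% to 23.3% with DESeq2, 20.1% with limma-trend, 22.3% with the block, 24.1% with the term and 21.5% without libraries numbered 1. With 1 library left out that share was 9.29% to 15.4%. In Thpok-RKF- CD4+CD8+ against WT CD4 SP cells it was 2, and 1 with no filter, only the compared groups or relative log expression factors, and 0 to 2 with 1 library left out. In Thpok-RKF+ CD4+CD8+ against WT CD4 SP cells it was 2. It was 0 with only the compared groups (3.98% of all genes called), 4 with the term (10.2%), and 0 to 2 with 1 library left out (4.78% to 7.59%). The cause was not tested.

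Libraries with the same number deviated together weakly (r from -0.05 to 0.22), and in no comparison did every pair pass 0.1, so the numbers were not taken as pairs. Between the CD4+CD8+ groups the replicate block moved the count over all genes from 159 to 240, and it changed the calls given above. Over all genes that count was also 428 with no filter, 350 with the term, 1753 without libraries numbered 1, 676 with DESeq2, 287 with limma-trend and 52 with only the compared groups. DESeq2 called 782 genes where edgeR called 403 between the Thpok-RKF- populations, and 1946 where edgeR called 1202 between Thpok-RKF+ CD4+CD8+ and WT CD4 SP, where only the compared groups gave 581. Leaving out 1 library moved counts over all genes by more than 1.5 times in 5 comparisons. Between the CD4+CD8+ groups 1677 genes were called without Thpok-RKF+ library 1 and 50 to 92 without any of the other 5. Between the Thpok-RKF- populations 216 to 263 genes were called in place of 403 without CD8 SP library 2 or 3 or any CD4+CD8+ library. WT CD4 SP against WT CD8 SP gave 1908 in place of 2981 without WT CD8 SP library 2. Thpok-RKF- CD8 SP against WT CD4 SP gave 1613 to 1830 in place of 2922 without WT CD4 SP library 3 or CD8 SP library 2 or 3. Thpok-RKF- CD4+CD8+ against WT CD4 SP gave 1488 to 1823 in place of 2908 without WT CD4 SP library 3 or any CD4+CD8+ library. With 3 libraries a group, a p that missed the threshold does not show that levels were equal.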

Other observations

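Further relatives separated mutant from wild-type cells, and the 2 named here were picked after their values were seen. Tcf7l2, a relative of Tcf7 and Lef1, stood at 5.83 to 13.6 CPM in the 9 mutant libraries and at 1.88 to 2.98 CPM in the 6 wild-type libraries. It was higher in Thpok-RKF- CD8 SP than in WT CD8 SP cells (log2 fold change 2.08 ± 0.22, edgeR adjusted p = 1.24e-05) and in Thpok-RKF+ CD4+CD8+ than in WT CD4 SP cells (1.88 ± 0.22, edgeR adjusted p = 7.90e-05). Id3, an inhibitor of E proteins, stood at 33.1 to 135 CPM in the mutant libraries and at 280 to 690 CPM in the wild-type libraries. It was lower in Thpok-RKF- CD8 SP than in WT CD8 SP cells (-3.12 ± 0.44, edgeR adjusted p = 0.000147) and in Thpok-RKF+ CD4+CD8+ than in WT CD4 SP cells (-1.94 ± 0.42, edgeR adjusted p = 0.0101). In each of the 5 groups the library numbered 1 had the lowest Id3 level.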
